A study of Mus musculus with 6 samples.

Results

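The genes described here encode 10 receptors that myeloid cells and B cells carry on their surface: Cd33, Siglece, Siglecg, Siglec1 and Cd22, which are Siglecs (sialic acid-binding lectins of the immunoglobulin superfamily), and Pirb, Clec12a, Cd300a, Cd300lf and Sirpa, which belong to other receptor families. They were taken by name from the 21851 genes of the deposited tables, and all 10 had a row. The list was chosen by receptor family with the measured FPKM of this comparison in view, among them the low Cd33 of irradiated cells, so the members' own differences between the groups are given as a description and are not tested. RNA-seq was done on hematopoietic stem cells (HSCs) from mouse bone marrow in 6 libraries, 3 of control mice (Ctrl) and 3 of mice exposed to ionizing radiation (IR), with wild-type genotype in both groups. The cells were sorted as lineage-negative, Sca-1-, c-Kit- and CD150-positive and free of Flt3 and CD48 on the surface. The labels and design text do not state the dose, the interval after exposure, the age and strain of the mice or the number of animals behind each library. Nothing says that libraries of a group came from different animals, so the p-values below measure the spread between these libraries, which may be technical.

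Inhibitory receptors of this kind set how strongly a blood cell answers to activating signals. Most of them carry an immunoreceptor tyrosine-based inhibitory motif (ITIM) in the cytoplasm, whose tyrosine is phosphorylated by Src-family kinases and then binds the phosphatases SHP-1 (Ptpn6), SHP-2 (Ptpn11) or SHIP-1 (Inpp5d). Siglecs are engaged by sialic acid on glycans of the same or a neighbouring cell, Sirpa by the "do not eat me" protein CD47, Pirb by class I histocompatibility molecules and CD300a by phospholipids of dying cells. Several of these genes mark the step from stem and progenitor cells to monocytes and granulocytes, and human CD33 and CLEC12A are surface targets on myeloid leukemia cells.

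The 10 genes differ in the motif that gives the group its name, and the coding sequences are shown because they separate Cd33, the member with the largest difference between the groups, from the other 6 genes measured above the filter. In the longest complete coding sequence of each gene in GENCODE M21 (GRCm38), translated and split at its most hydrophobic stretch of 21 residues, the cytoplasmic part of 8 genes held at least 1 ITIM (isoleucine, valine, leucine or serine, any residue, tyrosine, any 2 residues, then isoleucine, valine or leucine). Cd22 held 4 ITIMs, Siglecg, Pirb and Sirpa 3 each, Cd300a and Cd300lf 2 each, and Siglece and Clec12a 1 each. Siglece, Cd300lf and Sirpa also held 1 immunoreceptor tyrosine-based switch motif (threonine, any residue, tyrosine, any 2 residues, then valine or isoleucine). Cd33 and Siglec1 held neither. Siglec1, known as sialoadhesin, had no tyrosine in its 35 cytoplasmic residues, and Cd33 had 2 tyrosines in 135. The hydrophobic stretch of mouse Cd33 contained 1 lysine, the kind of charged membrane residue with which receptors are known to bind the activating adaptor Tyrobp (DAP12); of the other 9 genes, Cd22 also had 1 lysine or arginine there. The 63 bases coding for that stretch (chr7:43529920-43530261, minus strand, read across an exon junction) are given with the lysine codon in capitals:
Cd33: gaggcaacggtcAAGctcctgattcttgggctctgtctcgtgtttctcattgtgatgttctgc

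For the other 6 genes measured above the filter, 1 ITIM each is shown for comparison, with its 6 codons in capitals and up to 15 coding bases on either side. On GRCm38 these codons lie in coding exons, Siglece at chr7:43651585-43651602 (minus strand), Siglecg at chr7:43417979-43417996 (plus strand), Pirb at chr7:3712786-3712803 (minus strand), Clec12a at chr6:129350433-129350450 (plus strand), Cd300a at chr11:114901147-114901164 (plus strand) and Sirpa at chr2:129629954-129629971 (plus strand):
Siglece: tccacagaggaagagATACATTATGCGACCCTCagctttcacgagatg
Siglecg: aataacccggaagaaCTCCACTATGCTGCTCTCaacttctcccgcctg
Pirb: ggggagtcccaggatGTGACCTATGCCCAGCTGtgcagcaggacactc
Clec12a: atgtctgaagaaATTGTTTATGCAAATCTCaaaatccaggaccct
Cd300a: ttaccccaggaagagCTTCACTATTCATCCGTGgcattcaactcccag
Sirpa: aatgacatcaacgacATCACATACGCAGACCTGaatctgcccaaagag
In all 6 the third codon in capitals is a tyrosine codon, tat or tac. Clec12a carries its motif at tyrosine 7, next to its amino end, since this C-type lectin is anchored the other way round from the rest. The map of motifs along each cytoplasmic part shows the spacing.

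**Figure D1:**
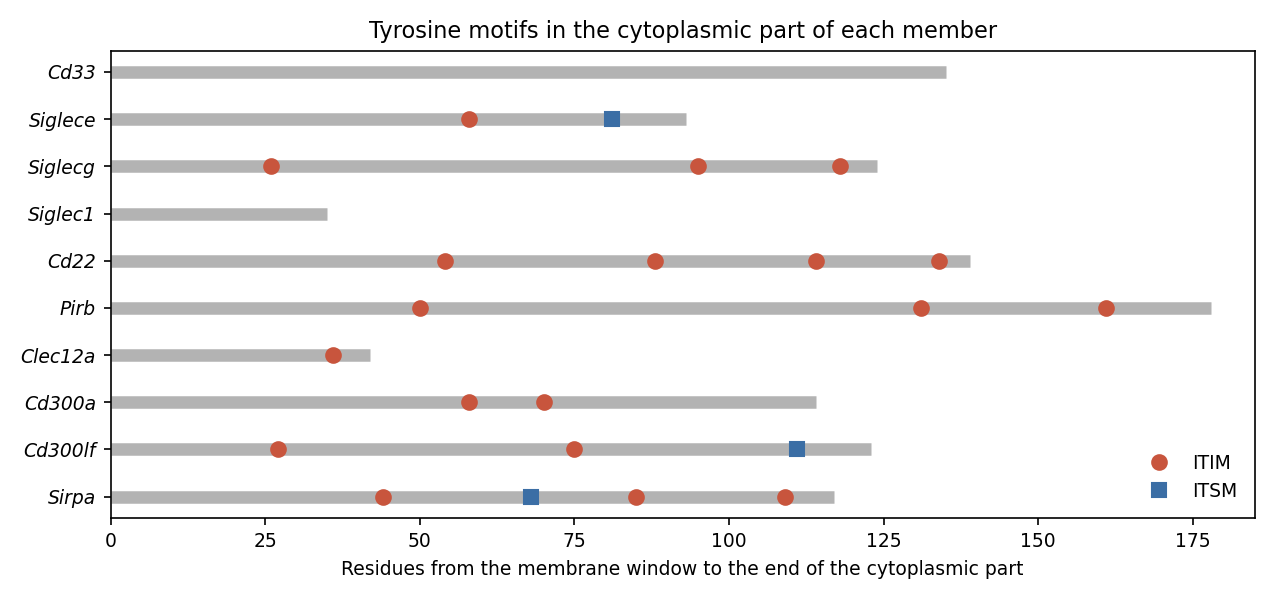
Position of tyrosine motifs in the cytoplasmic part of the 10 receptors, from the coding sequences in GENCODE M21; the x axis counts residues away from the membrane window, grey bars give the length of the cytoplasmic part, circles mark the tyrosine of an ITIM and squares that of a switch motif. Cd33 and Siglec1 have neither mark, and Cd22 has 4 ITIMs.

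Promoter sequences are shown for the 3 members with the largest differences. The RefSeq table (GRCm38.p6) held start sites for 8 of the 10 members, in 9 windows, and the 250 bases before each start were searched on both strands for GAGGAAG (bound by PU.1 and related ETS factors of myeloid cells), TTGCNNAA (C/EBP) and TGTGGT (RUNX). GAGGAAG was present in 7 of the 9 windows (Cd33, Siglece, Pirb, Clec12a, Cd300a, Cd300lf and 1 of the 2 of Siglecg), and it is in 10.6% of the 32851 windows of the table. TTGCNNAA was found for Clec12a and Cd300a and is in 9.56% of all windows, and TGTGGT for Cd33 and Clec12a and is in 14% of them. These matches describe the letters of the windows and do not show binding. Clec12a, the measured member with the smallest difference, held GAGGAAG too, and a link between matches and differences was not tested. The windows read in the direction of the gene, with each match on either strand in capitals, are Cd33 at chr7:43533172-43533421, Siglece at chr7:43660162-43660411 and Pirb at chr7:3720383-3720632, all on the minus strand:
Cd33: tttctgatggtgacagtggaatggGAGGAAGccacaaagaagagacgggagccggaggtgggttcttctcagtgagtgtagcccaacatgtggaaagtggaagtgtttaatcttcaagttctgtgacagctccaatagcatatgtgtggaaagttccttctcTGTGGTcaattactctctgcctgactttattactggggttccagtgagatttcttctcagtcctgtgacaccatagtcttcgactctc
Siglece: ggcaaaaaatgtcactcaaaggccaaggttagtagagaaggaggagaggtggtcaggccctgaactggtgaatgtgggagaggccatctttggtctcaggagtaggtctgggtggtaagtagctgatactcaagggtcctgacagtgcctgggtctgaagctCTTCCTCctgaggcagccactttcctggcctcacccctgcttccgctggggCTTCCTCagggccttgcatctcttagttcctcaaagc
Pirb: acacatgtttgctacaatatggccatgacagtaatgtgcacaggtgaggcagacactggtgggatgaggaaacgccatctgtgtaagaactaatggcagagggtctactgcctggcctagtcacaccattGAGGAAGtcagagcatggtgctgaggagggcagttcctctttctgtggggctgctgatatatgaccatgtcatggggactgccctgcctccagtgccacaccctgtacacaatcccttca
The Siglece window lies directly before the gene as GENCODE has it. The Cd33 window lies inside the longer gene model of GENCODE, which reaches to 43544428.

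As to the data as a whole, library sums ran from 486033 to 490697 FPKM (fragments counted, set relative to transcript length and to the mapped fragments of the library). Steps between low values put the depth at about 14400000 to 16300000 fragments per library, so that 1 FPKM over 1 kb of transcript stands for roughly 14.4 to 16.3 fragments. Genes at 1 FPKM or more in at least 3 libraries, 10281 in all, were compared between the groups on the log2(FPKM + 1) scale with limma and Benjamini-Hochberg adjustment over all of them at a threshold of 0.05. On this scale the change of low genes is understated. The share of genes called was 54.7% (28.9% lower and 25.8% higher in IR), so a call by itself is common in this comparison. Of 11 markers of HSCs, all 11 were above 0 FPKM in every library, with Kit and Ly6a the highest. Fgd5 stayed between 0.170 and 0.669 FPKM and was not tested, and Hoxb5 was under 1 FPKM in all Ctrl libraries. Of the 10 tested, 3 rose (Hoxb5 passed the filter through IR only) and 5 fell. In Ctrl, Procr at 19.2 FPKM, Hlf at 6.93 FPKM and Mecom at 3.37 FPKM were far under Mpo of the neutrophil list at 2253 FPKM.

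Of the 10 members, 7 stood at 1 FPKM or more in all 6 libraries, and in each of these the 3 IR libraries lay below the 3 Ctrl libraries. Their levels spanned from Clec12a at 74.8 ± 1.35 FPKM in Ctrl (mean ± SD, n = 3) to Siglece at 3.17 ± 0.340 FPKM. Siglec1, Cd22 and Cd300lf stayed under 0.24 FPKM everywhere, and their groups overlapped. All 7 measured members were called lower in the fit over all genes, where 28.9% of genes were, and 32.5% of all genes tested had IR libraries wholly below Ctrl (29.1% wholly above). Since the members were proposed from this contrast, nothing is read from these counts. The median log2 difference (IR minus Ctrl) of the 7 was -0.43, against -0.0072 for all genes tested, and the sizes ranged from a 3.49-fold lower mean FPKM for Cd33 to a 1.07-fold lower one for Clec12a.

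**Figure D2:**
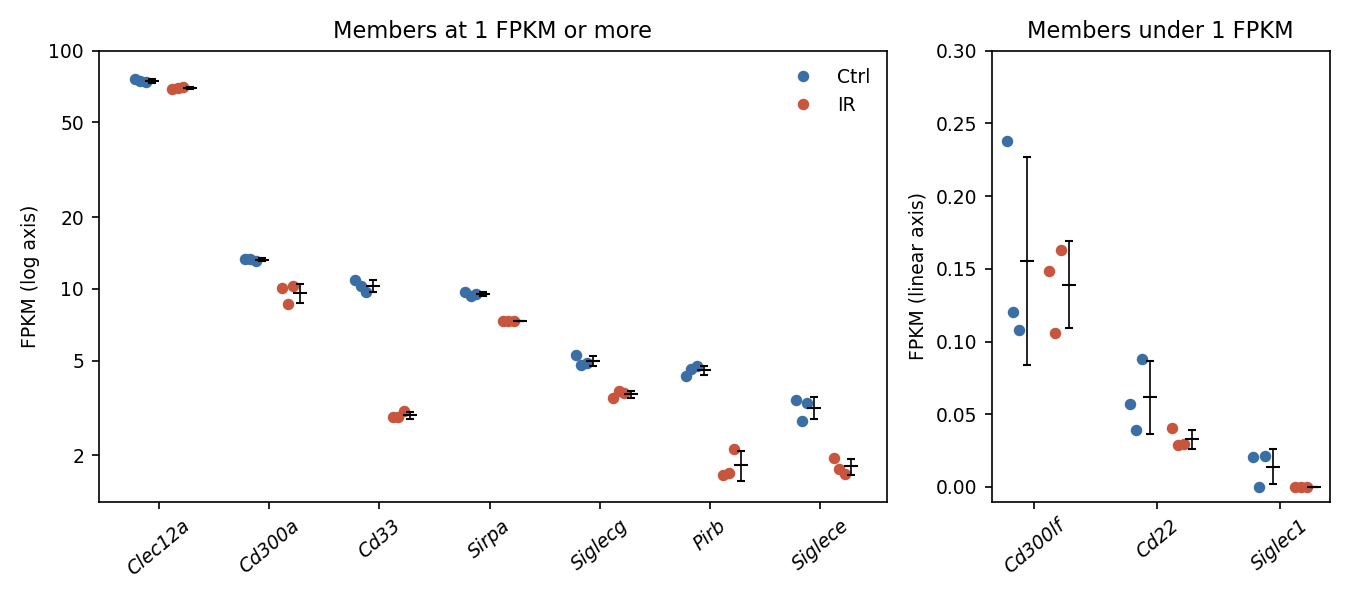
FPKM of each receptor gene in every library, on a log axis for the 7 genes at 1 FPKM or more (left) and on a linear axis for the 3 others (right); blue points are Ctrl libraries, red points IR libraries, and black marks give the mean and SD of 3 libraries. Cd33 and Pirb show the widest gaps between the groups in proportion to their level, and Clec12a the narrowest.

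Cd33, a myeloid Siglec without an ITIM match in the mouse sequence used here, was the Siglec with the largest difference. The gene lies on chromosome 7 from 43524216 to 43544428 (minus strand). It was measured at 10.9, 10.2 and 9.74 FPKM in Ctrl replicates 1 to 3 and at 2.89, 2.89 and 3.07 FPKM in IR replicates 1 to 3. Every IR library was below every Ctrl library by at least 6.67 FPKM, while the SDs were 0.573 FPKM in Ctrl and 0.101 FPKM in IR. The log2 difference was -1.51 (SE 0.0535), a mean 71.3% lower, and ranked 5 among the 10281 genes ordered from the largest fall. The mean in Ctrl lay above 44.1% of tested genes and that in IR above 17.6%. GENCODE lists 6 transcripts of Cd33 of 402 to 5728 bases, and 1 value per gene does not show which of them changed.

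Siglece, the main ITIM-bearing Siglec of mouse neutrophils and monocytes, lies in the same region (43651070 to 43660161, minus strand). Its levels were 3.42, 2.79 and 3.31 FPKM in Ctrl and 1.95, 1.76 and 1.68 FPKM in IR. The groups were separate, with 0.830 FPKM between the lowest Ctrl and the highest IR library, although Siglece varied more between Ctrl libraries than the other measured members did (coefficient of variation 10.7%). The log2 difference was -0.57 (SE 0.0739), or 43.3% lower in mean FPKM. Siglecg, a B-cell Siglec that is engaged by CD24 and dampens B-cell receptor signals, lies at 43408204 to 43418358 on the plus strand. It stood at 5.29, 4.80 and 4.89 FPKM in Ctrl and 3.49, 3.73 and 3.64 FPKM in IR, and no IR library reached the Ctrl range. The log2 difference was -0.37 (SE 0.0543), with a mean 27.5% lower.

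The remaining Siglecs of the list were close to the lower end of what these libraries can show. Siglec1, the sialoadhesin of tissue and marrow macrophages (chromosome 2, 131069220 to 131086765, minus strand), was listed at 0.0207, 0 and 0.0212 FPKM in Ctrl and at 0 in all 3 IR libraries, so it was at 0 in 4 of the 6. Cd22, the inhibitory co-receptor of B cells (chromosome 7, 30865402 to 30880342, minus strand), was at 0.0574, 0.0391 and 0.0883 FPKM in Ctrl and 0.0403, 0.0287 and 0.0296 FPKM in IR, and the groups overlapped. Neither was tested, and a difference in either was not detectable at this depth.

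Pirb, the paired immunoglobulin-like receptor B, binds class I histocompatibility molecules and, as background, is also known as a receptor for angiopoietin-like proteins on HSCs. It lies on chromosome 7 from 3711409 to 3720391 (minus strand). Ctrl libraries gave 4.32, 4.61 and 4.73 FPKM and IR libraries 1.65, 1.69 and 2.14 FPKM. The groups were 2.18 FPKM apart, and IR replicate 3 was the highest of its group. The log2 difference was -0.98 (SE 0.0736), a mean 59.9% lower and rank 53 by fall. Pirb shares long stretches with the activating Pira genes next to it, so reads could have been divided among them; Pira2 was at 0.318 FPKM in Ctrl and 0.156 FPKM in IR, both far under Pirb.

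Sirpa, the phagocyte checkpoint that binds CD47 (chromosome 2, 129592835 to 129632228, plus strand), stood at 9.72, 9.30 and 9.54 FPKM in Ctrl. The IR libraries were almost identical at 7.35, 7.36 and 7.31 FPKM, a coefficient of variation of 0.333%, and all lay below Ctrl. The log2 difference was -0.33 (SE 0.0418), or 22.9% lower in mean FPKM. Its ligand gene Cd47 was among the more abundant RNAs of these cells, at 442.7 ± 3.73 FPKM in Ctrl and 375 ± 8.79 FPKM in IR (limma log2 difference -0.24, Benjamini-Hochberg adjusted p = 1.05e-05), so both partners were lower.

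Clec12a, a C-type lectin that senses uric acid crystals of dead cells (chromosome 6, 129342691 to 129365303, plus strand), was by far the most abundant member. It measured 76.4, 74.3 and 73.8 FPKM in Ctrl and 69.1, 69.8 and 70.7 FPKM in IR. The groups did not overlap, but the mean was only 6.63% lower in IR, a log2 difference of -0.10 (SE 0.0258). Clec12a held 61.9% of the summed FPKM of the 10 genes in Ctrl and 71.9% in IR, because the others were lower by more. The sum over the 10 genes ran from 119 to 124 FPKM in Ctrl and from 96.0 to 99.0 FPKM in IR.

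Cd300a, which binds phosphatidylserine and phosphatidylethanolamine on dying cells (chromosome 11, 114890041 to 114904654, plus strand), was at 13.4, 13.4 and 13.1 FPKM in Ctrl and 10.1, 8.61 and 10.2 FPKM in IR. IR replicate 2 was the lowest, and every IR library was under the Ctrl range. The log2 difference was -0.43 (SE 0.0588), with a mean 27.5% lower. Cd300lf, the other inhibitory member of this family in the list (115116214 to 115133992, minus strand), was at 0.238, 0.120 and 0.108 FPKM in Ctrl and 0.149, 0.106 and 0.163 FPKM in IR, with overlapping groups. Cd300lf lies inside Rab37, a gene on the opposite strand at 52.8 FPKM in Ctrl and 48.8 FPKM in IR. Library preparation kept strand, but whether counting used it is not stated. Without it, reads from any stretch that both genes share could be counted for either, and whether their exons overlap was not checked.

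The order of the members by level differed between the groups at Cd33. In Ctrl the order from high to low was Clec12a, Cd300a, Cd33, Sirpa, Siglecg, Pirb, Siglece, Cd300lf, Cd22 and Siglec1. No neighbours in that order overlapped, though the lowest Cd33 library, at 9.74 FPKM, and the highest Sirpa library, at 9.72 FPKM, nearly met. In IR Cd33 stood below Sirpa and Siglecg, and its lowest library, at 2.89 FPKM, was above the highest Pirb library, at 2.14 FPKM. Pirb and Siglece overlapped in IR and cannot be ordered there.

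**Figure D3:**
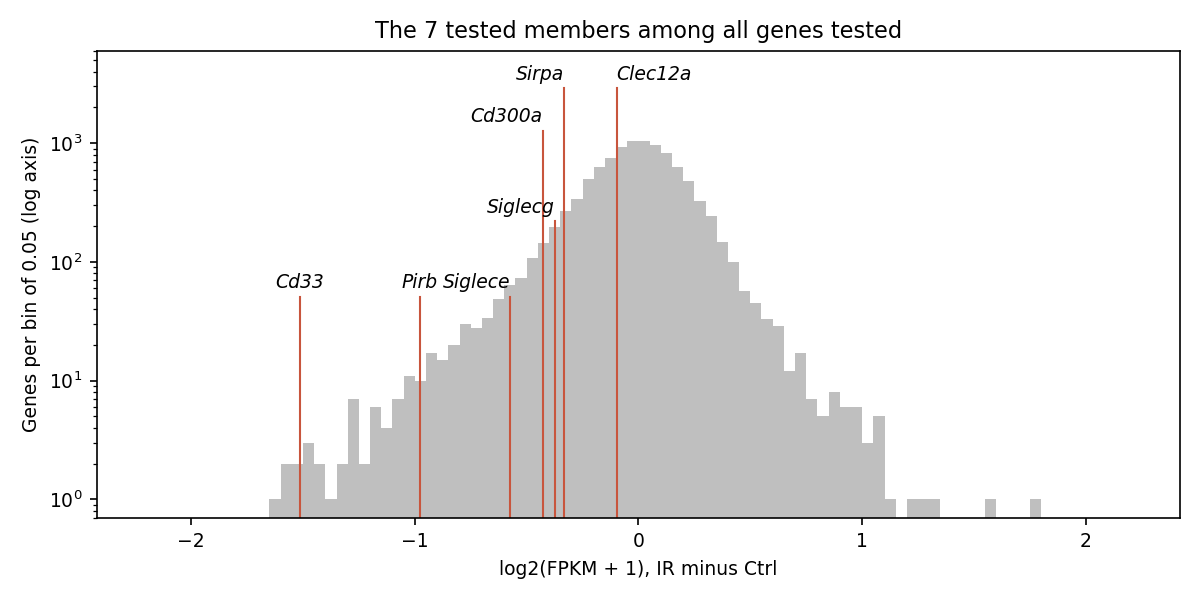
Distribution of log2 differences (IR minus Ctrl, log2(FPKM + 1) scale, x axis) over the 10281 genes tested, as genes per bin on a log axis; red lines mark the 7 measured receptor genes, whose line heights carry no value. Cd33 at -1.51 and Pirb at -0.98 stand in the thin lower tail and Clec12a at -0.10 within the bulk.

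Siglecg, Cd33 and Siglece sit in a cluster of 252 kb on chromosome 7 and share it with unrelated genes. Between Siglecg and Siglece the tables held 14 protein-coding genes, of which 9 were tested, and 5 of these fell, 2 rose and 2 did not pass. Besides the 3 Siglecs, Vsig10l and the zinc finger gene Zfp658 fell, the latter from 1.72 ± 0.245 to 0.564 ± 0.0306 FPKM (limma log2 difference -0.79, adjusted p = 2.09e-05); it passed the filter through Ctrl only. Nkg7, a cytotoxic granule membrane protein, rose from 535 ± 11.8 to 648 ± 4.25 FPKM (0.28), Zfp719 rose by 0.38, and Etfb, an electron transfer flavoprotein subunit, was at 419 and 419.5 FPKM. Tested genes of this stretch thus differed in direction, where 28.9% of all genes tested fell and 25.8% rose. The 3 Siglecs among those that fell were chosen from this contrast, and regulation across the region was not tested.

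Cd300a and Cd300lf lie in another cluster, on chromosome 11. Of 11 protein-coding genes from Cd300a to Rab37, 5 were tested and called lower: the member Cd300a, Cd300lb, Rab37, and Cd300c and Cd300c2, which passed the filter through the Ctrl libraries only. Over all genes tested, 28.9% were called lower. Cd300a was chosen from this contrast, and regulation across the region was not tested. Cd300c2, an activating receptor, fell from 3.35 ± 0.598 to 0.580 ± 0.206 FPKM (limma log2 difference -1.46, adjusted p = 4.71e-06). The activating receptor gene Cd300lb fell from 11.2 ± 0.507 to 6.15 ± 0.474 FPKM (-0.77, adjusted p = 3.96e-06 by limma), and Cd300c, at 1.34 ± 0.171 and 0.247 ± 0.162 FPKM, had a log2 difference of -0.91. The activating genes had larger log2 differences here than the inhibitory Cd300a at -0.43; the difference between them was not tested. The members of this family resemble each other in sequence, and reads may have been split among them.

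**Figure D4:**
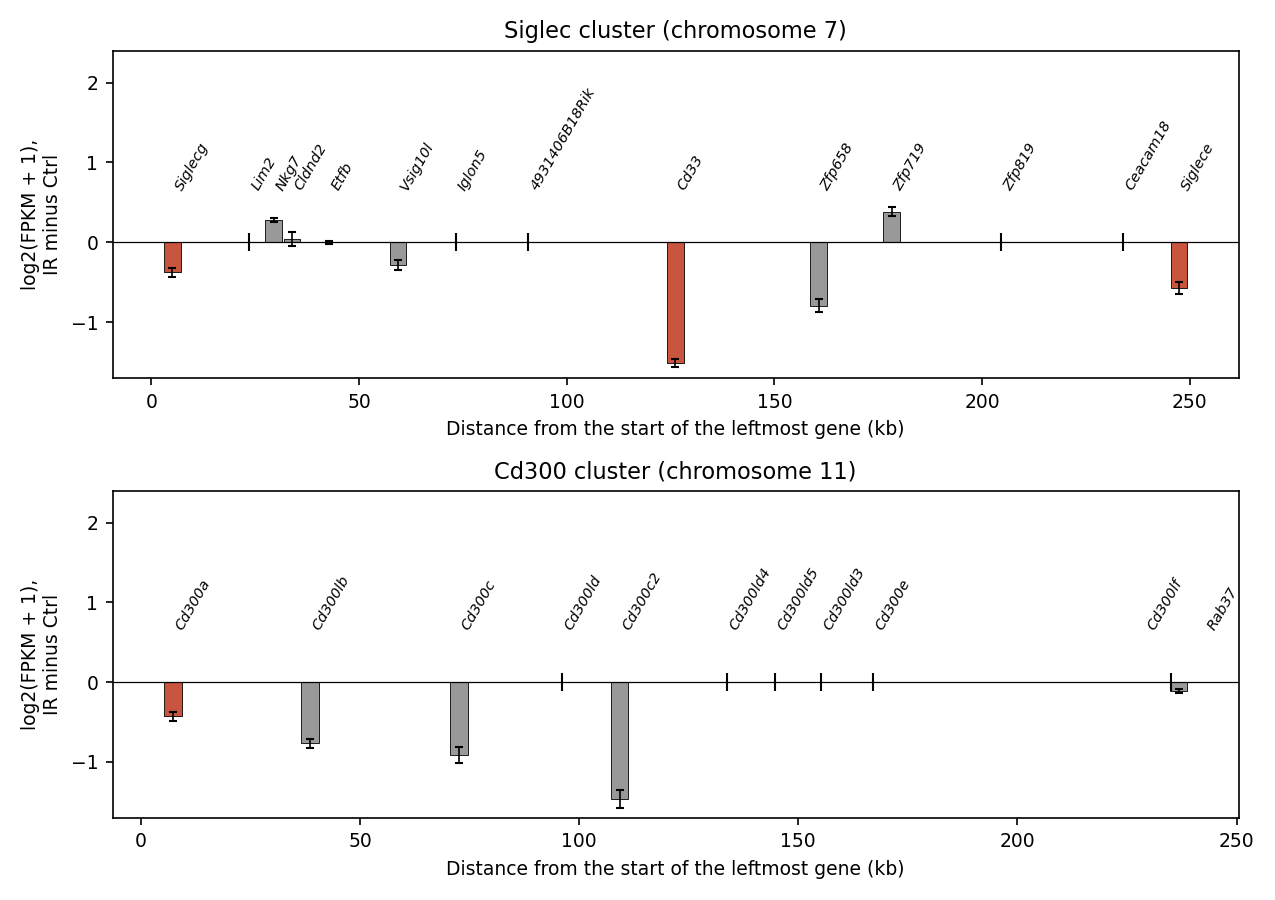
Log2 difference between IR and Ctrl (y axis, log2(FPKM + 1) scale, bars with SE) of the protein-coding genes in the Siglec region (top) and the Cd300 region (bottom), against distance from the start of the leftmost gene in kb; red bars are receptor genes of the list, grey bars other genes, and ticks on the zero line genes under the filter. In the top plot the bars of Nkg7 and Zfp719, which rose, point upward, and in the bottom plot every bar points downward.

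The other genes of the pathway were taken by role, from lists of receptors, adaptors, enzymes and ligands. The counts of each list stand beside 54.7% of all genes tested that were called, 28.9% lower and 25.8% higher in IR. Of 4 further Siglecs, 2 were tested and both fell. Siglecf, an eosinophil Siglec, was at 11.8 ± 0.416 FPKM in Ctrl and 10.6 ± 0.530 FPKM in IR (limma log2 difference -0.15, adjusted p = 0.0234), and the call was lost without Ctrl replicate 1 (adjusted p = 0.0852) or IR replicate 2 (adjusted p = 0.0825) and under quantile normalisation (0.0523). Siglech, the marker of plasmacytoid dendritic cells, fell from 1.35 ± 0.111 to 0.436 ± 0.0650 FPKM and passed the filter through Ctrl only. Without Ctrl replicate 1 neither gene was called. Siglech had too few libraries at 1 FPKM for the filter when any Ctrl library was left out.

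Of 24 other genes for inhibitory receptors and adaptors, 12 were tested, 10 fell, none rose and 2, Lair1 and Treml1, were not called (median log2 difference -0.39). The share of all genes tested that fell was 28.9%. Btla, a checkpoint receptor of lymphocytes, fell from 5.61 ± 0.181 to 2.27 ± 0.279 FPKM (limma log2 difference -1.02, adjusted p = 1.79e-06). Lax1, an adaptor that dampens antigen receptor signals, fell by 0.61 on the log2 scale (SE 0.0598), and Cd72, an inhibitory co-receptor of B cells, from 34.1 ± 0.831 to 25.8 ± 0.483 FPKM. Milr1, an inhibitory receptor of mast cells, fell from 20.5 ± 0.518 to 15.5 ± 0.674 FPKM. The lowered receptors thus included lymphoid as well as myeloid ones. Klrg1 was listed at 0 in all 6 libraries.

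Activating partners of these receptors were lower in part. Of 31 listed, 28 had a row and 13 were tested, of which 7 fell, 1 rose and 5 did not pass (median -0.24). The shares for all genes tested were 54.7% called in either direction, 28.9% lower and 25.8% higher. Cd300c and Cd300c2, among the 7, passed the filter through Ctrl only. The other 15 stayed under the filter. With a filter of 5 FPKM, 4 of 9 were called. Tyrobp, the adaptor that carries the activating motif for many of them, was at 256 ± 11.8 FPKM in Ctrl and 216 ± 6.35 FPKM in IR (limma log2 difference -0.24, adjusted p = 0.000197). Fcer1g, the adaptor of Fc receptors and of Pira, fell further, from 135 ± 5.45 to 82.8 ± 0.849 FPKM (-0.69, adjusted p = 1.16e-07 by limma), and Cd200r4 from 2.99 ± 0.254 to 1.48 ± 0.192 FPKM. Clec4e, a C-type lectin known as Mincle, was the 1 gene that rose, from 31.8 ± 0.968 to 35.8 ± 0.845 FPKM; it is named after its value was seen.

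The phosphatases and docking proteins that act behind an ITIM had a smaller median difference than the listed receptors. The receptors were chosen from this contrast, so nothing is read from that, and it was not tested. Of 11 listed, 10 were tested: 6 fell, none rose, and 4 did not pass (median -0.12). Over all genes tested, 54.7% were called in either direction and 28.9% were called lower. Ptpn6, which encodes SHP-1, stood at 206, 207 and 208 FPKM in Ctrl and 188, 184.5 and 189 FPKM in IR (limma log2 difference -0.15, SE 0.0203, adjusted p = 0.000183). Inpp5d, encoding SHIP-1, had a log2 difference of -0.09 (adjusted p = 0.0168 by limma), which was lost without Ctrl replicate 1 (adjusted p = 0.0505), without Ctrl replicate 2 (0.0562) and under quantile normalisation (0.0557). Ptpn11, encoding SHP-2, was not called, at 5.14 ± 0.337 and 5.39 ± 0.225 FPKM. The suppressor of cytokine signalling Socs3 fell from 31.7 ± 0.812 to 23.8 ± 0.620 FPKM, and the docking proteins Dok2 and Dok3 had log2 differences of -0.26 and -0.22.

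Of 11 kinases and adaptors that such receptors restrain, 10 were tested: 6 fell, none rose, and 4 did not pass (median -0.08). For all genes tested the shares were 54.7% called in either direction and 28.9% called lower. Pik3ap1, the adaptor BCAP, fell from 23.3 ± 0.643 to 16.2 ± 0.654 FPKM and Lcp2, the adaptor SLP-76, from 39.0 ± 0.839 to 34.1 ± 0.801 FPKM. Fyn was at 12.5 ± 0.394 and 11.4 ± 0.0645 FPKM (adjusted p = 0.0283 by limma); its call was lost without Ctrl replicate 1 (adjusted p = 0.102), without IR replicate 1 (0.0684), without IR replicate 2 (0.0518), without IR replicate 3 (0.0618) and under quantile normalisation (0.0575).

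**Figure D5:**
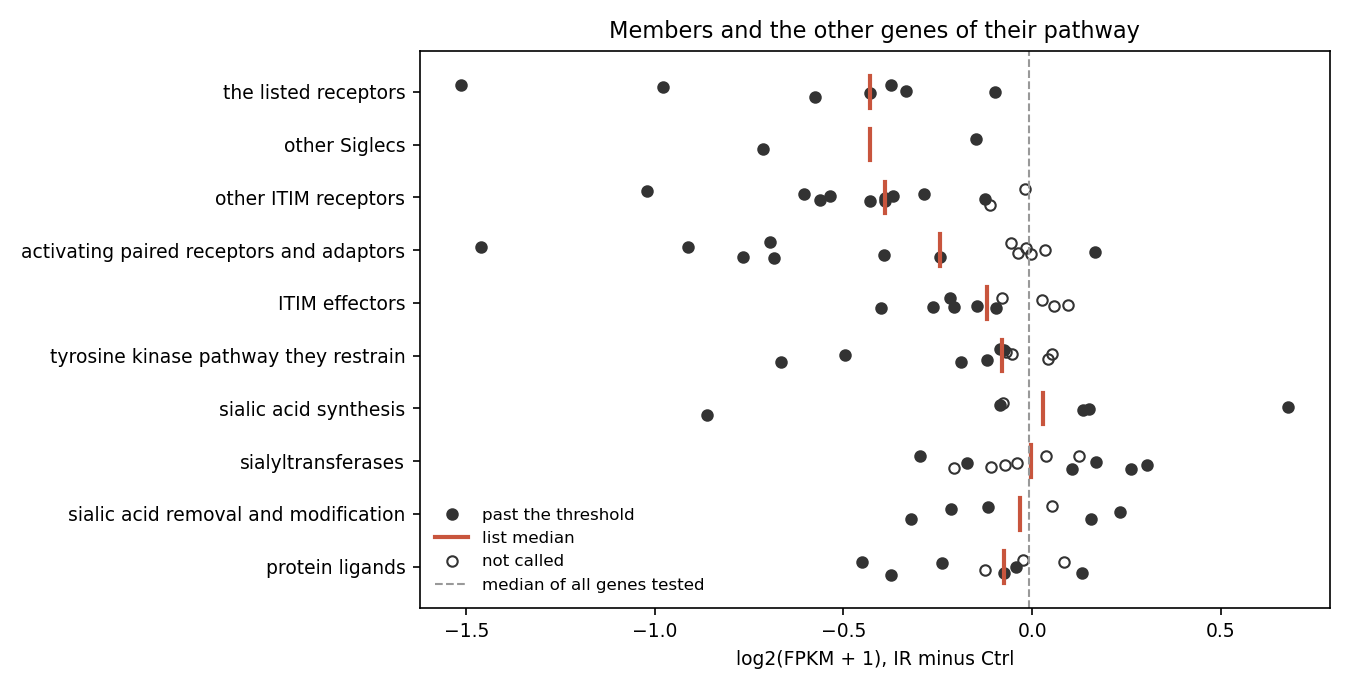
Log2 difference between IR and Ctrl (x axis, log2(FPKM + 1) scale) of each tested gene in the receptor list (top) and in 9 lists of other genes of the pathway; filled points passed the threshold, open points did not, red bars are list medians and the dashed line is the median of all genes tested. Points of the receptor lists lie mostly to the left, with medians of -0.43 to -0.24, and those of the sialic acid lists on both sides of the dashed line.

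The sialic acid that Siglecs read is made by a short pathway, and its genes moved in both directions. Of 6 synthesis genes, all tested, 3 rose, 2 fell and 1 did not pass (median 0.03). Among all genes tested, 28.9% fell and 25.8% rose. Gne, the enzyme of the entry step, rose from 13.5 ± 0.290 to 15.1 ± 0.312 FPKM (limma log2 difference 0.15, adjusted p = 0.00696), Nans rose from 43.7 ± 2.09 to 48.04 ± 1.14 FPKM, and Nanp rose by 0.68 (SE 0.150), with Ctrl libraries spread from 3.14 to 6.08 FPKM and IR libraries from 7.20 to 7.74 FPKM. Cmah makes the glycolyl form of sialic acid, the form that mouse Cd22 is known to prefer. It fell from 1.83 ± 0.0575 to 0.560 ± 0.00806 FPKM (-0.86, adjusted p = 2.76e-06 by limma) and passed the filter through Ctrl only. Without Ctrl replicate 3 this list had 3 called genes in place of 5, all of them higher. Cmah was not tested there, nor when either of the other Ctrl libraries was left out.

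Of 20 sialyltransferase genes, which place sialic acid on glycans, 12 were tested: 4 rose, 2 fell, and 6 did not pass (median -0.0017). This share of calls was near the 54.7% of all genes tested. St3gal4 rose from 6.19 ± 0.214 to 7.08 ± 0.172 FPKM and St8sia6 from 0.843 ± 0.121 to 1.21 ± 0.0896 FPKM, whereas St8sia4, a polysialyltransferase, fell from 18.6 ± 0.617 to 16.4 ± 0.920 FPKM and St3gal6 from 1.22 ± 0.117 to 0.807 ± 0.0629 FPKM. St8sia6 passed the filter through IR only and St3gal6 through Ctrl only. St6gal1, the enzyme that makes the ligand of Cd22, was not called, at 2.06 ± 0.180 and 1.83 ± 0.138 FPKM. St6gal2, St6galnac1 and St8sia5 were listed at 0 throughout. Without Ctrl replicate 2 or without IR replicate 2, 3 of 11 were called in place of 6 of 12.

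Among 8 genes that remove or modify sialic acid, 6 were tested: 2 rose, 3 fell, and 1 did not pass (median -0.03). The sialidase gene Neu3 rose from 2.83 ± 0.188 to 3.50 ± 0.106 FPKM and Casd1, a sialic acid acetyltransferase, from 13.4 ± 0.325 to 15.1 ± 0.597 FPKM. Siae, the esterase that removes these acetyl groups, fell from 22.4 ± 1.02 to 19.2 ± 0.576 FPKM and Ctsa, the lysosomal protein that protects the sialidase Neu1, from 78.4 ± 0.492 to 62.5 ± 1.56 FPKM. Of 9 protein ligands 5 fell, 1 rose and 3 did not pass (median -0.07). Both counts stand beside 54.7% of all genes tested that were called, 28.9% lower and 25.8% higher. Ptprc, which encodes CD45, a sialylated ligand of Cd22, fell from 64.3 ± 1.12 to 49.4 ± 0.914 FPKM and Angptl2, a known ligand of Pirb, from 2.91 ± 0.142 to 1.86 ± 0.110 FPKM. The class I gene H2-K1, whose product Pirb binds, rose from 1006 ± 9.45 to 1104 ± 3.98 FPKM. The other class I genes of the list were called in the opposite direction, among the 5 that fell. H2-D1 was at 1735 ± 15.1 FPKM in Ctrl and 1684 ± 5.18 FPKM in IR (limma adjusted p = 0.0270). B2m, the shared light chain, was at 6435 ± 109 and 6115 ± 56.7 FPKM (limma adjusted p = 0.00221). Their log2 differences were small, -0.04 and -0.07.

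By distance between profiles, the genes most like Cd33 were Ear6, Wfdc18, Ly6d, Itgb5 and P2ry13. Likeness was the Euclidean distance over the 6 libraries between log2(FPKM + 1) values set to each gene's Ctrl mean, among 7395 named genes at 5 FPKM or more in 1 group, and these distances were 0.220, 0.274, 0.30, 0.307 and 0.320. This measure picks genes with a difference between the groups like that of Cd33, so their lower IR levels follow from the choice. Ear6, an eosinophil-type ribonuclease with close copies, was at 5.12 ± 0.116 FPKM in Ctrl and 1.28 ± 0.0433 FPKM in IR. Itgb5, an integrin chain, was at 9.95 ± 0.221 and 3.02 ± 0.410 FPKM.

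Markers of cells that carry these receptors moved as well, in a comparison where 28.9% of all genes tested fell and 25.8% rose. Of 15 monocyte and macrophage markers, 11 were tested, 8 fell and none rose, Adgre1 among the 8 having passed the filter through Ctrl only. The summed level of this list was 256 to 265 FPKM in Ctrl and 238 to 250 FPKM in IR, led by Ly6c2 and Cd68, and Marco was listed at 0. Neither Ly6c2, at 147 FPKM in Ctrl and 154 FPKM in IR, nor Cd68, at 47.15 and 44.38 FPKM, was called. In the dendritic cell list 4 of 10 were tested and all 4 fell, among them Itgax and Siglech, which passed the filter through Ctrl only, while Clec9a and Batf3, under the filter, were higher in IR at group means of at most 0.265 FPKM. The dendritic sums were 63.3 to 64.4 FPKM in Ctrl and 42.8 to 46.1 FPKM in IR, led by Irf8 and Tcf4. B cell markers were summed at 81.2 to 89.9 FPKM in Ctrl and 60.9 to 61.6 FPKM in IR, mostly Cd79b and Cd79a; of 11 listed 5 were tested, 3 fell and 1 rose, while the B-lineage regulators Pax5 and Ebf1 were at most 0.0309 FPKM in group mean. Neutrophil markers split, with 6 of 10 tested genes lower and 3 higher. The 6 were Camp, Ngp, S100a8, S100a9, Ltf and Retnlg, the last 2 having passed the filter through Ctrl only. The 3 were Mpo, Elane and Prtn3, which made up most of the sums of 3972 to 4011 FPKM in Ctrl and 4566 to 4710 FPKM in IR. Mpo went from 2253 to 2665 FPKM, while S100a8, the most abundant of the 6, went from 85.6 to 61.7 FPKM. The higher sum therefore does not describe the list as a whole. Erythroid and megakaryocyte markers went the other way, with 7 of 9 tested genes higher and sums of 135 to 139 FPKM and 214 to 231 FPKM. In bulk RNA, fewer cells that carry a receptor and less of its RNA in each cell cannot be told apart, and the part of these marker changes in the lower receptor levels was not tested.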

How the data were processed

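mRNA of sorted HSCs was sequenced in 6 libraries, 3 Ctrl and 3 IR, made with a stranded mRNA kit, per the labels' protocols. The deposited values are FPKM, 1 per gene and library, which the authors made with tools among which the submitters' processing notes name fastp, HISAT2 and StringTie, on GRCm38 (mm10). For tool versions, gene annotation and settings the sources used here give nothing, and the unit was inferred from the values. Of 21878 rows, 27 named by a date were left out. Genes at 1 FPKM or more in at least 3 libraries (10281) were compared on log2(FPKM + 1) with limma 3.58.1 in R 4.3.3 (trend, 2-sided, Benjamini-Hochberg, no replicate block), after the code was tested on simulated data. Depth was estimated from steps between low values of single-transcript genes; 24.6% to 27.1% of low values lay within 0.01 of a whole multiple, too few to recover reads. The members and all lists were chosen with earlier results of these data known. Named are all 10 members, of each pathway list the 4 genes with the smallest p, 11 partners fixed by name, the 5 genes nearest to Cd33, and of each marker list the 2 highest genes and those at 0. A gene that the rule takes in is not reported here. All other genes named, such as cluster neighbours, Clec4e and Pax5, were chosen after their values were seen. Alternatives changed the pseudocount, filter, scaling, trend and block and left out each library.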

Additional observations from a re-analysis of the deposited data

How the results depend on the processing

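As a description only, since the members were chosen from this contrast, the 7 measured receptor genes were past the threshold under each alternative except the filter of 5 FPKM, which left 4 of them in the test. Called genes in all numbered 5622 and ranged from 4381 with that filter to 6487 without a filter, and from 4893 to 5122 when 1 library was left out. On the log2 scale Cd33 ranged from -1.77 (pseudocount 0.1) to -0.94 (pseudocount 5) and Pirb from -1.28 to -0.49, since the pseudocount weighs on low genes. Over the 9 pathway lists 54 genes were called, against 39 to 61 under the alternatives. With the replicate number as a block 5379 genes were called in all and 48 in the pathway lists, and the list of restrained kinases had 3 called genes in place of 6. Deviations of same-numbered libraries from their group means correlated at 0.0085, -0.0314 and -0.0486, so no pairing by replicate number was visible. Whether same-numbered libraries were handled together cannot be told from these values. With about 14.4 to 16.3 fragments per kb at 1 FPKM, differences in Siglec1, Cd22 and Cd300lf could not be measured.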
